A study of Mus musculus with 4 samples.

Results

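The palatal shelves of Tbx1 knockout and wild-type mouse embryos at embryonic day 13.5 (E13.5) were set against each other on 2 arrays, 1 for each genotype, of the 4 arrays in the series. These were the samples whose titles name palatal shelves. For each of 22180 genes, read from transcript clusters that carry a single gene symbol, the difference was the log2 level in the knockout shelves minus the log2 level in the wild-type shelves. The other 2 arrays held the whole head of wild-type and Tbx1 knockout embryos at E12.5, and their levels are given beside those of the shelves. All embryos were on a mixed C57BL/6J and FVB/N background, and the platform was the Affymetrix Mouse Gene 2.0 ST array, whose probes lie along the exons of each transcript. The labels give neither the part of Tbx1 that is missing nor the cells in which it is missing, and they do not say how many embryos went into a sample. In 1 label field the E13.5 samples are called head as well, whereas their title, source and tissue name palatal shelves. With 1 array a group there is no replicate, so no difference has an error or a p-value, and precision is limited by how few arrays there are.

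The palatal shelves grow out from the maxillary processes on either side of the tongue, rise above it and fuse in the midline to form the secondary palate. Each shelf has a core of mesenchyme, derived mostly from the cranial neural crest, under an epithelium that faces the mouth below and the nasal cavity above, where it passes into the lining of the nose. Behind, the soft palate takes up striated muscle that arises from the mesoderm of the pharyngeal arches. Tbx1 encodes a T-box transcription factor made in pharyngeal endoderm, in the mesoderm of the arches and in oral epithelium. It lies in the chromosome segment deleted in DiGeorge syndrome, and mice without it are known for cleft palate and for missing or reduced muscles of the head.

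The wild-type array carried the markers of the labelled tissue. Osr2, a zinc finger factor of palatal mesenchyme, had a log2 level of 10.99 in the wild-type shelves and 11.15 in the knockout shelves, and 9.43 and 9.46 in the wild-type and knockout head. Krt15, a keratin of basal epithelium, had levels of 8.49 and 9.07 in the shelves and 6.5 and 6.34 in the head. Both markers were higher in both shelf arrays than in both head arrays. Tbx1 itself had a level of 7.39 in the wild-type shelves and 6.18 in the knockout shelves, a difference of -1.21. Of the 7 T-box genes past the level limit, which is defined below, it alone differed by 2-fold. Where the Tbx1 probes lie against the missing part is unknown from the labels, so this level does not check the genotype labels.

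A gene was said to pass the level limit when the higher of its 2 shelf levels reached 6.16, the median of all named genes over the 4 arrays, and 11449 genes did so. Counts of genes past a fold cover genes past this limit, whereas counts of higher and lower members and medians cover every measured member. Of these, 53 genes (0.463%) were at least 2-fold higher and 54 genes (0.472%) at least 2-fold lower in the knockout shelves. At 1.5-fold, 219 genes (1.91%) were higher and 153 (1.34%) lower. The SD of the difference over these genes was 0.259, and 2 bright transcript clusters of the same gene disagreed with an SD of 0.226 per cluster (233 genes). A difference of 0.2 or 0.3 in 1 gene is therefore of the size by which probe sets of a gene disagree. Above 0 were 48.6% of all named genes (median -0.01) and 55.2% of genes past the limit (median 0.02). The latter share is the one to set beside lists made up mostly of genes past the limit. In the head pair, 4 of 11364 genes (0.0352%) were at least 2-fold higher and 6 (0.0528%) lower. Just inside the 2-fold line of the shelves lay Scn3b (1.0) and Nxph4 (1.0) among the higher genes and Dmrt3 (-1.01) and Cabcoco1 (-1.02) among the lower, and just outside it lay Chrna4 (1.0 after rounding), Tmem178b (1.0 after rounding), Cbr2 (-0.99) and Slco4c1 (-0.97). These 8 genes were chosen for their place at the line.

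**Figure D1:**
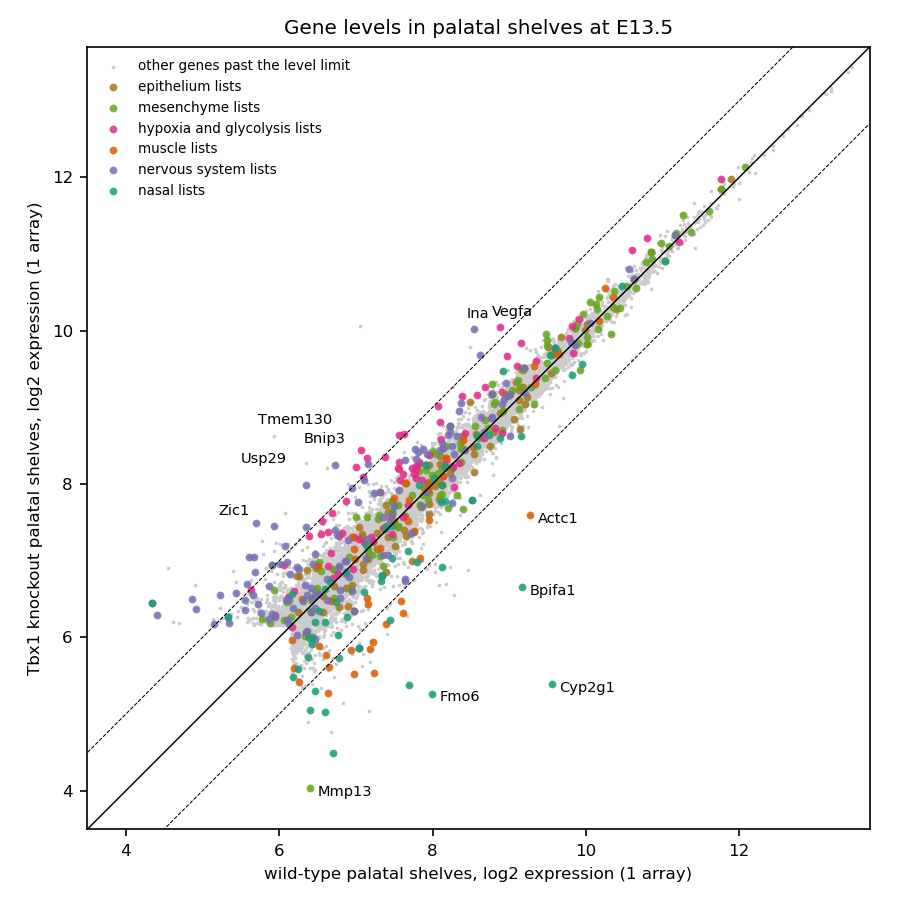
Log2 level of each gene past the level limit in the wild-type shelves (x axis) against the knockout shelves (y axis), 1 point per gene, with the line of equal levels, dashed 2-fold lines and colours for groups of gene lists. Cyp2g1, at 9.56 and 5.39, lies farthest below the diagonal, and of the genes on mesenchyme lists Mmp13, Emx2 and Ncan lie outside the 2-fold lines.

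Most of the listed genes past 2-fold came from nasal, nervous system, muscle and hypoxia or glycolysis lists. Of the 53 higher genes, 21 stood on a list of nervous system genes and 6 on a list of hypoxia or glycolysis genes. Of the 54 lower genes, 12 stood on a list of nasal genes and 11 on a list of muscle genes, Tbx1 being among the latter. Past the level limit were 137 nervous system, 77 hypoxia or glycolysis, 60 nasal and 49 muscle genes. Over all 11449 genes past the limit, 0.463% were higher and 0.472% lower by 2-fold. On lists of palatal mesenchyme, signalling or epithelium, with 348 genes past the level limit, stood 1 higher gene and 3 lower genes, and 0 of these 4 came from the epithelial lists. No list held 23 of the higher and 28 of the lower genes. The lists were written with earlier results of these data known, so these counts describe the arrays and test nothing. RNA came from whole dissected tissue, so that fewer cells of a type and less RNA per cell cannot be told apart.

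**Figure D2:**
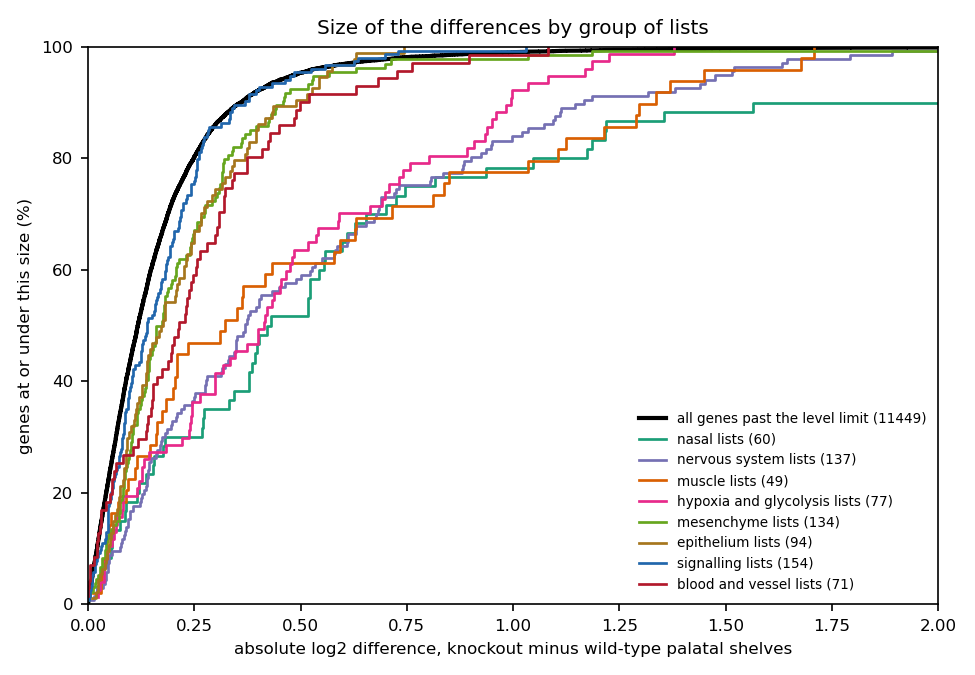
Share of genes in percent (y axis) whose absolute log2 difference between knockout and wild-type shelves is at or under the value on the x axis (drawn to 2), for genes past the level limit in each group of lists and for all such genes, with their number in the key; a gene could pass the limit through its higher array alone, as 33 of the 53 higher and 34 of the 54 lower genes did. The nasal, nervous system, muscle and hypoxia or glycolysis lines run to the right of the others; median absolute differences were 0.32 to 0.43 for these groups, 0.14 to 0.17 for signalling, mesenchyme and epithelium, and 0.12 over all genes.

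The nasal lists held the largest differences. Genes of the nasal lining, whose products are detoxifying enzymes and secreted proteins of the olfactory and respiratory mucosa, were lower in the knockout shelves in 31 of 38 measured members, with a median difference of -0.17 against -0.01 over all named genes; the mean over the list was -0.55. Cyp2g1, a cytochrome P450 of the olfactory mucosa, had a level of 9.56 in the wild-type shelves and 5.39 in the knockout shelves, 18-fold lower. Its head levels were 4.79 in wild type and 5.18 in the knockout, so that the wild-type shelves alone stood high among the 4 arrays. Bpifa1, a secreted protein that lines the airways, had levels of 9.17 and 6.66 in wild-type and knockout shelves and 3.34 and 3.37 in the heads. Both shelf arrays thus read Bpifa1 above both heads, with the wild-type shelves 5.7-fold over the knockout shelves. The flavin monooxygenase Fmo6 was 6.64-fold lower (8.0 to 5.27), the acyl-CoA synthetase Acsm4 4.99-fold (7.70 to 5.38) and the oestrogen sulfotransferase Sult1e1 4.63-fold (6.71 to 4.5). These 5 were the members of the list that passed both the level limit and 2-fold.

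The enzyme families of these members did not share their differences. Of 47 measured members of cytochrome P450 family 2, 24 were higher and 23 lower in the knockout shelves, and of the 9 past the level limit Cyp2g1 alone differed by 1.5-fold. Cyp2f2, a P450 of airway and nasal epithelium, went from 8.11 to 7.76 (-0.34), and its brightest transcript cluster read -0.67. All 6 flavin monooxygenases were lower, yet Fmo2 differed by -0.52 and Fmo1 by -0.09. Glutathione S-transferases, which detoxify in many epithelia, divided into 9 higher and 8 lower members with a median of 0.00. Of secreted proteins, 11 of 12 mucins and 11 of 14 BPI-fold genes were lower, though only 2 genes of each family passed the level limit. Muc1, a mucin anchored in the apical membrane, went from 7.37 to 6.93.

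Genes of olfactory and vomeronasal sensory neurons were lower in 20 of 27 measured members, with a median of -0.25, which was -0.05 over members whose mean of the 4 arrays reached the limit. Of the 18 members past the level limit 5 were at least 2-fold lower. Rtp1 and Rtp2 encode proteins that carry odorant receptors to the cell surface, and their levels went from 7.45 to 6.23 and from 6.60 to 5.03. Calb2, which encodes calretinin, a calcium-binding protein of young olfactory neurons, went from 6.40 to 5.05. Gfy, which encodes a Golgi protein of olfactory neurons and stood on no list, went from 8.17 to 6.69. Each of these 4 genes was lower by more than 1 on the log2 scale. Omp, the protein that defines mature olfactory neurons, lay under the level limit in every array, at 5.61 and 5.40 in the shelves and 5.40 and 5.14 in the heads, and was chosen after its values were seen. Of 1105 olfactory receptor genes measured, 17 passed the level limit in the shelves, and Olfr15 (6.84 to 5.15) was the 1 among these 17 that differed by 2-fold. Vomeronasal receptors divided into 146 higher and 139 lower of 285 measured.

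The list of forebrain and midbrain factors, some of which the olfactory epithelium shares, was nearly even, with 17 members higher and 16 lower. Its largest difference was that of Zic1 (1.79), while other members were lower. Emx2 went from 7.05 to 5.86 (-1.19), Lhx2 from 8.52 to 7.79 (-0.73) and Otx2 from 7.65 to 6.76 (-0.88). In the heads Emx2 read 8.20 and 7.88, Lhx2 9.62 and 9.70, and Otx2 8.35 and 8.30. Ebf1, a helix-loop-helix factor of olfactory neurons and of mesenchyme, differed by -0.40.

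Genes of nasal progenitors and of support and respiratory cells were lower in 18 of 23 measured members (median -0.25, or -0.52 without members of another list). Sec14l3, a lipid-binding protein of airway epithelium, went from 6.47 to 5.30 and Ermn from 6.78 to 5.73. Among water channels, Aqp4 went from 6.77 to 6.03 and Aqp3 from 7.68 to 7.12, and 8 of 11 measured aquaporins were lower. Foxa1, a forkhead factor of gut and airway epithelium, differed by -0.52. The early placode factors Eya1 (11.03 to 10.91), Six4 (8.17 to 8.22) and Sox2 (9.59 to 9.77) differed by less than 0.2 each. Sfta3-ps went the other way, from 4.34 to 6.45, beside its neighbour Nkx2-1, a homeobox factor of lung, thyroid and ventral forebrain, at 5.33 and 6.27. The heads read Nkx2-1 at 6.97 and 7.11, above both shelves.

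Motile cilia genes, which build the beating cilia of the respiratory lining, were lower in 27 of 31 measured members, with a median of -0.37, and 0 of the 11 past the level limit differed by 2-fold. Mcidas, a switch for the multiciliated fate, went from 7.79 to 6.98, and Foxj1, the forkhead factor that turns on ciliary genes, from 7.34 to 6.8. Of 16 axonemal dynein genes 15 were lower, among them Dnali1 (6.78 to 6.04), and of 12 tektin and radial spoke genes 11 were lower, among them Rsph4a (6.24 to 5.59). Deup1, which builds the deuterosomes that multiply centrioles, went from 8.09 to 6.68, and Cfap206, an axonemal protein, from 7.41 to 6.04. These 2 genes stood on no list, and both were at least 2-fold lower. The heads read Deup1 at 5.93 and 5.98 and Cfap206 at 5.75 and 5.86, under the level limit in each case. Most members were dim, with 20 of the 31 listed cilia genes under the level limit.

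Several further genes far down in the knockout shelves stood on no list. Atp8b4, a lipid-flipping ATPase, went from 7.17 to 5.04, S100z, an S100 calcium-binding protein, from 6.68 to 4.77, and Fstl5 from 8.46 to 6.87. The metalloprotease gene Adam28 went from 7.08 to 5.62, the uroplakin gene Upk1b from 7.67 to 6.27 and the aldehyde oxidase gene Aox2 from 7.10 to 5.79. Of all 54 lower genes, 34 had a wild-type head level at least 2-fold under the wild-type shelf level, and 28 were under the level limit in both heads. The 54 were selected by a high wild-type shelf level, which favours head levels below it. The same shares over all genes past the limit were not counted.

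**Figure D3:**
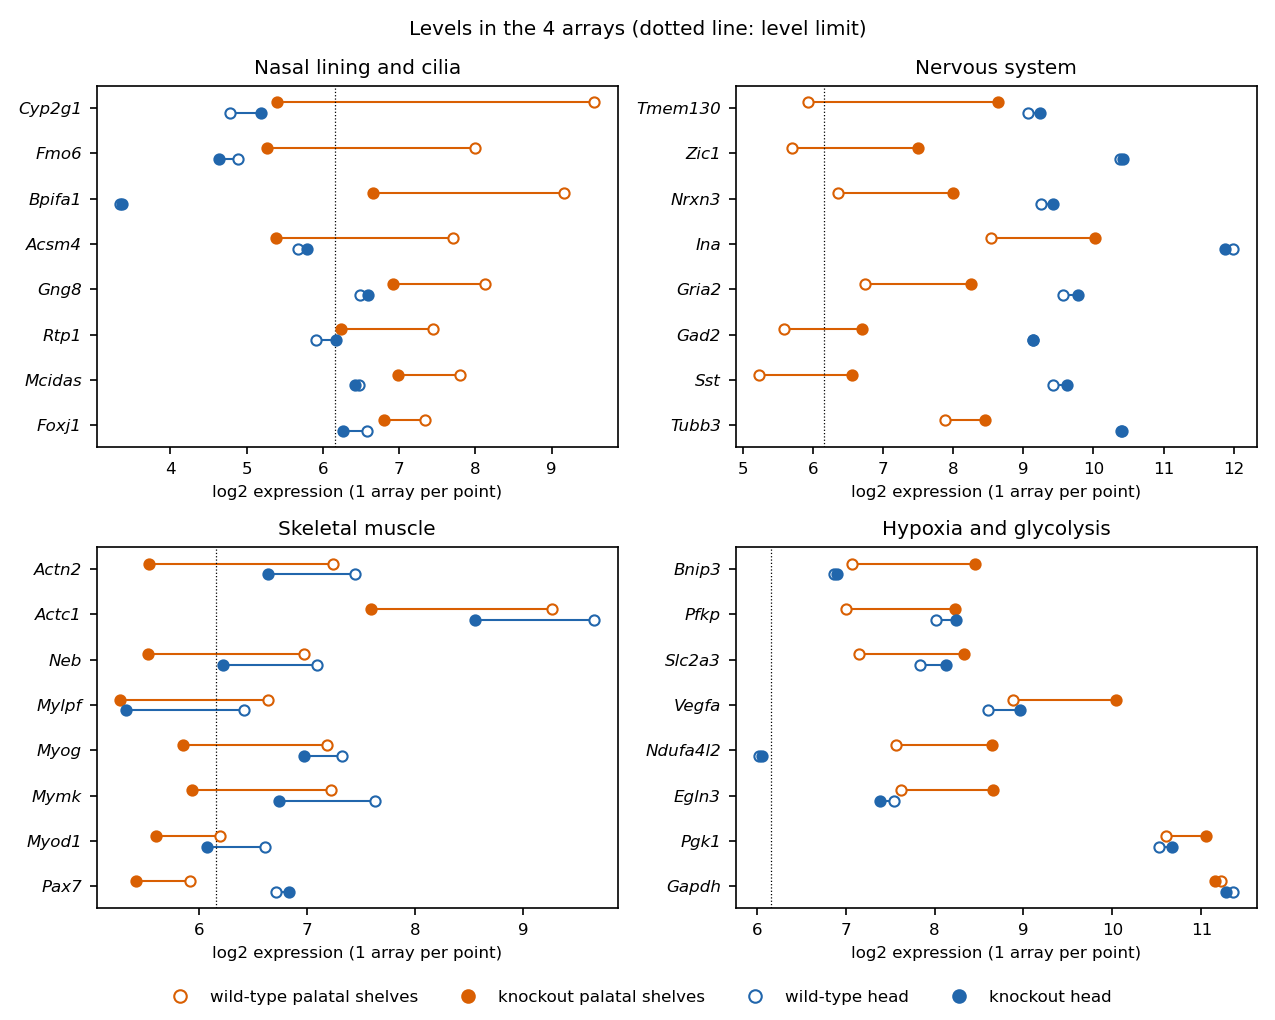
Log2 level (x axis) of selected genes (rows) in 4 panels by tissue or process, 1 point per array: orange for palatal shelves at E13.5, blue for head at E12.5, open for wild type and filled for knockout, with the level limit of 6.16 as a dotted line. Cyp2g1 and Bpifa1 were highest in the wild-type shelves, Zic1 and Ina in the heads, and Bnip3 and Vegfa in the knockout shelves.

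Most neuronal gene lists were higher in the knockout shelves. Of 222 measured members of the nervous system lists 150 (67.6%) were higher, against 48.6% of all named genes and 55.2% of genes past the level limit. The share was not particular to these lists, since 139 of 206 signalling genes (67.5%) were higher too. The median was 0.16 for the nervous system lists and 0.08 for the signalling lists. Of the 222 nervous system members 137 passed the limit. The Schwann cell, neural crest and melanocyte list in this group had 7 members higher and 11 lower, a median of -0.04 and 0 past 1.5-fold among 8 past the level limit. The neuronal cytoskeleton and axon list was higher in 26 of 30 members (median 0.44). Ina, the neurofilament protein internexin alpha, had levels of 8.54 in wild-type and 10.02 in knockout shelves, against 11.88 in the knockout head, where the difference from wild type was -0.11. Nrcam, an axonal adhesion protein, went from 5.67 to 7.05, and Crmp1, a protein of growth cones, from 8.62 to 9.69. Stmn2, a tubulin-binding protein of growing axons and one of the brightest members, stayed at 10.06 and 10.10, and Map1b went from 10.56 to 10.81. Pan-neuronal genes thus differed by unequal amounts on the same 2 arrays.

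Genes of synaptic release were higher in 25 of 31 members, with a median of 0.31. Nrxn3, a presynaptic adhesion protein, went from 6.35 to 7.99, Celf4, a neuronal RNA-binding protein, from 5.93 to 7.45, Chgb, a granin of secretory granules, from 4.92 to 6.37, and the calcium sensor Syt1 from 7.16 to 8.26. All 4 were more than 2-fold higher in the knockout shelves. Syt1 did not carry its family, since 11 of 17 synaptotagmins were lower and the median of the family was -0.05. Contactins and neurexins were higher in 13 of 15 members (median 0.36), and sodium channels in 8 of 11 (median 0.69), with Scn3a at 7.16 and 8.0 and Scn8a at 5.84 and 6.55. Potassium channels, a family spread over many tissues, were higher in 37 and lower in 49 of 86 members.

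Lists of transmission genes were higher in most members. The list of GABA and glycine genes was higher in 16 of 21 members (median 0.32). The list of glutamate, acetylcholine and monoamine genes was higher in 19 and lower in 11 of 30 (median 0.14), and 20 of the 30 were under the level limit. Over members whose mean of the 4 arrays reached the limit, its median was 0.61, against 0.37 for the GABA and glycine list. The ionotropic glutamate receptor family was higher in 14 of 16. Glra2, a glycine receptor subunit of the embryonic brain, went from 4.41 to 6.30, against 8.35 and 8.38 in the heads. Gabra5 went from 5.61 to 7.05, Gad2, an enzyme that makes GABA, from 5.58 to 6.69 and the AMPA receptor subunit Gria2 from 6.73 to 8.25. Gphn, the scaffold of inhibitory synapses that is also made outside the nervous system, differed by 0.08.

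Factors of the hypothalamus and ventral forebrain were higher in 26 of 35 members, with a median of 0.32. Calcr, the calcitonin receptor, went from 4.87 to 6.5, Sst, the neuropeptide somatostatin, from 5.23 to 6.55, and Six6, a homeobox factor of the hypothalamus, pituitary and retina, from 5.68 to 6.85. Isl1 went from 7.31 to 7.89, and Lhx6, which is also made in jaw and palate mesenchyme, from 8.77 to 9.17. Zic1, a zinc finger factor of the dorsal neural tube and forebrain, had levels of 5.70 and 7.49 in wild-type and knockout shelves and 10.38 and 10.42 in the heads. The knockout shelves thus lay above the wild-type shelves and below both heads in Zic1. Neural progenitor and glial genes were closer to even, with 17 of 29 higher, Sox1 from 5.44 to 6.58 and Olig2 the other way, from 7.64 to 6.73. Ncan, the brain proteoglycan neurocan, went from 5.91 to 6.95, but its 2 transcript clusters differed by 0.39 and 1.68.

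Most of the 53 higher genes had higher levels in the heads, which hold the brain, than in either shelf array. The wild-type head level exceeded the knockout shelf level for 42 of them, by at least 2-fold for 31. Over all genes past the limit the median level was 7.76 in the wild-type head and 7.74 in the knockout shelves. In the head pair 0 of the 53 were 1.5-fold higher in the knockout. Few genes differed in that pair at all, 4 of 11364 (0.0352%) being 2-fold higher. The same shares over all genes past the limit were not counted, so these counts do not set the 53 apart from other genes. Tmem130, which had the largest difference of the higher genes when predicted genes are set aside, went from 5.93 to 8.63, with 9.07 and 9.23 in the heads. The splicing factor gene Nova1 went from 6.07 to 7.62, the neuronal tubulin gene Tubb4a from 6.62 to 8.21, the small GTPase gene Rit2 from 4.61 to 6.21 and the calbindin gene Calb1 from 4.70 to 6.18. These 4 brain genes stood on no list. Without the genes of the nervous system lists, 32 genes were at least 2-fold higher. Eye, pituitary and inner ear lists held 1 higher gene, Six6, and 1 lower gene, Gjb2, a gap junction protein of cochlea and epithelia (8.04 to 6.85). The part that brain or nasal tissue in the dissected pieces has in these differences was not tested.

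**Figure D4:**
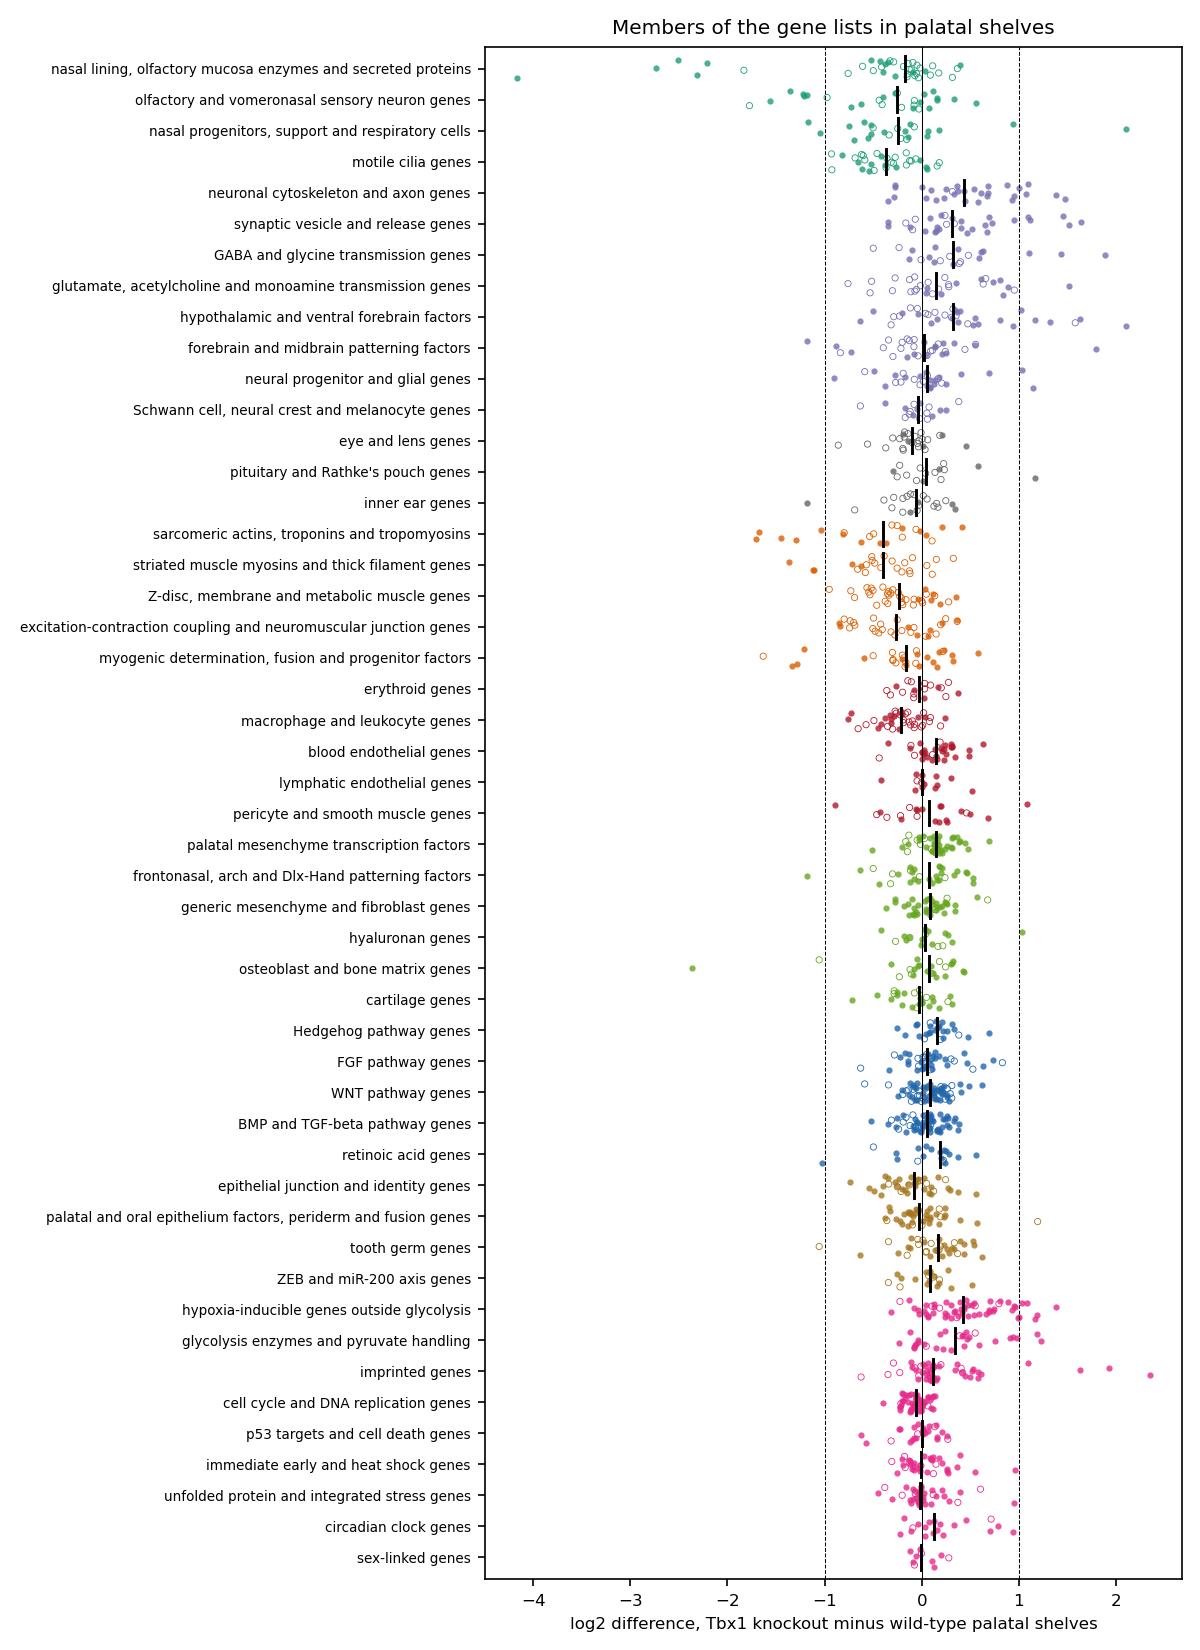
Log2 difference, knockout minus wild-type palatal shelves (x axis), of each member of the gene lists (rows), with filled points for genes past the level limit, open points for dimmer genes, a black bar for the median and dashed lines at 2-fold. The neuronal cytoskeleton and hypoxia rows lie to the right of 0, with medians of 0.44 and 0.42, and the sarcomere and motile cilia rows to the left, with medians of -0.40 and -0.37.

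Genes of the contractile apparatus of striated muscle were lower in the knockout shelves. Sarcomeric actins, troponins and tropomyosins were lower in 18 of 22 measured members with a median of -0.40, and striated muscle myosins and thick filament genes in 20 of 24 with a median of -0.40. The myosin median was -0.91 over members whose mean of the 4 arrays reached the level limit and -1.11 over the 5 whose higher shelf array did. A gene could pass the latter filter through its wild-type array alone, as Mylpf and Ttn did, which favours larger differences. Actc1, the sarcomeric actin of heart and embryonic skeletal muscle, had levels of 9.27 and 7.59 in wild-type and knockout shelves and 9.66 and 8.55 in the heads. Actn2, which crosslinks actin at the Z-disc, went from 7.24 to 5.53 in the shelves and from 7.44 to 6.63 in the heads. The knockout array was the lower one of each pair for both genes. Neb, the giant ruler of the thin filament, differed by -1.45, Ttn, the elastic titin, by -1.11, Myh3, the embryonic myosin heavy chain, by -1.12 and Mylpf, the fast regulatory light chain, by -1.37. All 8 troponin genes measured were lower, with a median of -0.71, and Tnnt2 went from 7.62 to 6.32, Tnni1 from 6.66 to 5.62 and Tnnc1 from 7.84 to 7.03. Tropomyosins that nonmuscle cells also make did not share this: Tpm1 differed by 0.04 and Tpm3 by -0.01.

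Factors that commit and fuse myoblasts differed by unequal amounts. Myog, which drives terminal differentiation, went from 7.18 to 5.85, and Mymk, a membrane protein of myoblast fusion, from 7.22 to 5.93. Myod1, the determination factor, went from 6.19 to 5.60 and Myf5 from 5.43 to 5.16, the latter under the level limit; both were chosen after their values were seen. Mstn, the secreted inhibitor of muscle growth, went from 5.60 to 3.96, also under the limit. Pax3, made in somitic progenitors and neural crest, differed by 0.16, Six4 by 0.05 and Cdkn1c by 0.12. The list of myogenic factors therefore had a median of -0.16 over all 29 members and 0.01 over those past the level limit. Other muscle lists showed the same change with the filter: the median of Z-disc, membrane and metabolic genes was -0.23 over all 36 members and 0.10 over those past the limit, and that of excitation-contraction coupling genes -0.26 and 0.01. Fhl1, a LIM protein made in many mesenchymal cells, was higher (7.66 to 8.01), whereas Atp2a1, the calcium pump of fast muscle, went from 6.62 to 5.77.

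The muscle lists had medians below 0 in both the shelf and the head pair. Sarcomeric actins, troponins and tropomyosins had a median of -0.16 in the head against -0.40 in the shelves, and the myosin list -0.10 against -0.40. Casq2, the calsequestrin of the sarcoplasmic reticulum, differed by -1.09 in the head and -0.84 in the shelves, and Mylpf by -1.10 and -1.37. Of the 54 genes lower in the shelves, 8 were at least 1.5-fold lower in the head as well. All 8 stood on muscle lists: Actn2, Actc1, Neb, Mylpf, Tnnt2, Mymk, Myh3 and Ttn. The share of all genes 1.5-fold lower in the head was not counted. At 2-fold, a stricter cut, it was 0.0528%, which is no baseline for the 8 genes. The difference between the pairs was not tested, since each holds 1 array a genotype and they differ in both stage and tissue. Smooth muscle genes gave no common direction: Acta2, the smooth muscle actin, went from 9.65 to 8.76, Myl9 from 9.30 to 9.48 and Cspg4, a pericyte proteoglycan, from 6.78 to 7.47.

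E-boxes, the sites that myogenic factors such as Myog and Myod1 bind, were looked for in the 250 bases before the start of muscle genes, in RefSeq promoter windows of GRCm38.p6. The letters searched were CANNTG, which read the same on both strands, and the windows of Myog and of Actn2 are shown because both genes were more than 2-fold lower, with each match in capitals. The Myog window is chr1:134289754-134290003 on the plus strand, and the Actn2 window is chr13:12340733-12340982 on the minus strand.
Myog: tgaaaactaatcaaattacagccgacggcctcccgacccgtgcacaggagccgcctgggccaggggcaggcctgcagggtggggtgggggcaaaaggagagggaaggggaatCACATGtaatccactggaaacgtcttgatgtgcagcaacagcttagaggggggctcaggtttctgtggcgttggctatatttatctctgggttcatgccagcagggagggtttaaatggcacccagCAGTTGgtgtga
Actn2: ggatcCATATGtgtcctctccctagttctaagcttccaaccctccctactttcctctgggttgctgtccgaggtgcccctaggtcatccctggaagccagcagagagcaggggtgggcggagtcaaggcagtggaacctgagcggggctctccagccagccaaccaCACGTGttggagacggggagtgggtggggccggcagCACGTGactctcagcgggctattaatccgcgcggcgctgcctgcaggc
The Myog window holds 2 matches and the Actn2 window 3. Of all 32851 windows 66.2% hold a match, so that its presence is common. In the muscle lists 78.9% of 128 windows (104 of 141 genes) hold one, and among muscle genes at least 2-fold lower 10 of 12 windows. Of the 3 Actn2 matches, 2 are CACGTG, which also holds the letters ACGTG. A match is a run of letters and no measure of binding.

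Genes induced by low oxygen were higher in the knockout shelves. Hypoxia-inducible genes outside glycolysis were higher in 52 of 58 measured members, with a median of 0.42 in the shelves and 0.04 in the head. Bnip3, a mitochondrial protein of mitophagy and cell death, had levels of 7.07 in wild-type and 8.45 in knockout shelves and 6.86 and 6.91 in the heads. Ndufa4l2, which damps mitochondrial respiration, had shelf levels of 7.56 and 8.64 and head levels of 6.03 and 6.06. For both genes the knockout shelves were the highest of the 4 arrays. Vegfa, the main growth factor of blood vessels, had shelf levels of 8.88 and 10.05 and head levels of 8.60 and 8.96. Egln3, a prolyl hydroxylase that marks hypoxia-inducible factors for removal, chosen after its values were seen, went from 7.62 to 8.66, Ddit4, an inhibitor of the mTOR pathway, from 8.07 to 9.02 and Ier3 from 6.56 to 7.52. The differences of these 3 genes were 1.04, 0.95 and 0.96.

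Enzymes and carriers of glycolysis were higher in 22 of 30 members with a median of 0.35, against 0.07 in the head. The glucose carrier Slc2a3 went from 7.15 to 8.34 and the phosphofructokinase Pfkp from 7.0 to 8.23, the 2 members past the level limit and 2-fold. Head levels of Pfkp were 8.02 and 8.24 and those of Slc2a3 7.83 and 8.13, so that neither gene read clearly highest in the knockout shelves. Hexokinase gene Hk2 went from 7.38 to 8.36, glycogen phosphorylase gene Pygl from 6.39 to 7.33 and the lactate carrier gene Slc16a3 from 6.87 to 7.78, each just short of 2-fold. For these 3 genes the knockout shelves were the highest array. The bright housekeeping steps differed less: Pgk1 went from 10.60 to 11.05, Tpi1 from 10.80 to 11.21, Pkm from 11.76 to 11.98 and Gapdh from 11.22 to 11.16. Of the 77 hypoxia and glycolysis genes past the level limit, 25 were higher by 1.5-fold or more and 0 were lower by as much.

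The transcription factors of the pathway differed by little. Hif1a, the oxygen-regulated factor, stood at 7.11 and 7.24 and Epas1, its relative, at 7.23 and 7.25, both chosen after their values were seen, and Arnt, their partner, went from 9.77 to 9.90. The protein of Hif1a is regulated mainly by its breakdown, which arrays do not measure. The medians of other stress lists were near 0: heat shock and immediate early genes -0.01, genes of the unfolded protein response -0.01 and p53 targets 0.01. Ier3 (0.96) and Ddit4 (0.95), given above, also stood on the first and second of these lists. Each was the 1 gene past 1.5-fold on that list. Mitochondrial complex I genes were even, with 15 of 32 higher. Time from dissection to freezing, and whether it was equal for both genotypes, is not given in the labels, and its part was not tested.

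The core letters of a hypoxia response element, ACGTG, were looked for on both strands of the same 250-base windows. The windows below belong to 3 of the hypoxia and glycolysis genes named above, the one with the largest difference (Bnip3), an oxygen sensor (Egln3) and a glycolytic enzyme (Pfkp), with matches in capitals. They are chr7:138909507-138909756, chr12:54203875-54204124 and chr13:6648772-6649021, all on the minus strand.
Bnip3: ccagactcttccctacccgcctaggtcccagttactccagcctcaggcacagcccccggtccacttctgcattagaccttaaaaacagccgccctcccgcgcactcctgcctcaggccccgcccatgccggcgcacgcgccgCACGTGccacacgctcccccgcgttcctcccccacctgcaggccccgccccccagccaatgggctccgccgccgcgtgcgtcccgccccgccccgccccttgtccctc
Egln3: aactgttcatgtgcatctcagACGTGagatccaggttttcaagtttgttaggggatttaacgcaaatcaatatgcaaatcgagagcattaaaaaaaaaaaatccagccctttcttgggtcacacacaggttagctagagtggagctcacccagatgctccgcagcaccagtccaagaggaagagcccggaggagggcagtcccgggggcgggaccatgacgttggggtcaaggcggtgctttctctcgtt
Pfkp: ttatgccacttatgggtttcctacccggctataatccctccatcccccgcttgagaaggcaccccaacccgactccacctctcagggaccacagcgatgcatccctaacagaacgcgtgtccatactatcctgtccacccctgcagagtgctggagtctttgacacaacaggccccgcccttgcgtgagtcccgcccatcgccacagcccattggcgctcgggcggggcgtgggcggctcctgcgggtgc
The Bnip3 window reads CACGTG, which counts as 2 overlapping matches, 1 on each strand, and is an E-box by the letters searched above. Egln3 holds 1 match and Pfkp 0. Over all 32851 windows 16.6% hold the letters, and over the hypoxia and glycolysis lists 42.6% of 94 windows (70 of 85 genes) do. Among the genes at least 2-fold higher it was 3 of 5 windows (4 of 6 genes). Vegfa had more than 1 of these windows: chr17:46032378-46032627 held 0 matches and chr17:46025164-46025413 held 1. The lists gather known targets of the hypoxia-inducible factors, so the share over the lists describes how they were put together as much as these arrays. The lack of a match in Pfkp says only that the letters are not in its window.

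Genes that identify palatal mesenchyme differed little. Among palatal mesenchyme transcription factors 36 of 46 were higher, with a median of 0.14, and 0 of the 37 past the level limit differed by 2-fold. Osr2 differed by 0.16, Osr1 by 0.21, Pax9 by 0.14, Barx1 by 0.18, Prrx1 by 0.11 and Snai2 by 0.18. These 6 factors passed the level limit in all 4 arrays, and none differed by more than the SD between 2 clusters of a gene. The largest difference in the list was that of Foxl1, a forkhead factor downstream of Hedgehog signalling (5.93 to 6.62), followed by Tbx15 (8.20 to 7.69) and Foxf1, also a Hedgehog target (9.48 to 9.95). Factors of the frontonasal region and of the arches were even, with 16 higher and 15 lower. Dlx5 stood at 9.86 and 9.82, while Dlx6 went from 6.98 to 6.35 and Dlx2 from 8.23 to 8.76. All 36 Hox genes measured were under the level limit in both shelf arrays.

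General mesenchymal genes were among the brightest on the arrays and 0 of the 36 past the level limit differed by 1.5-fold. Postn, a matrix protein of periosteum and palate, stood at 12.07 and 12.13, Pdgfra, the receptor of neural crest mesenchyme, at 11.16 and 11.25 and Fn1, fibronectin, at 11.76 and 11.84. Dcn, the proteoglycan decorin, went from 10.33 to 9.96. Of 44 collagen genes 25 were higher, with a median of 0.05, and 0 of the 34 past the level limit differed by 1.5-fold. Has2, which makes the hyaluronan of the shelf, differed by 0.27 and Vcan, which binds it, by 0.03. Mmp13, a collagenase of bone and cartilage, was the exception, with 6.40 in wild-type and 4.04 in knockout shelves and 3.82 and 3.92 in the heads, 5.14-fold lower. Only the wild-type shelf array read Mmp13 past the level limit. Its relatives went the other way or differed less (Mmp9 0.44, Mmp24 0.69), and osteoblast genes beside it were even, with 13 of 24 higher, Col1a1 at 0.24, Phex, a peptidase of bone cells, at 0.43 and Dmp1, a matrix protein of osteocytes under the level limit, at -1.06. Cartilage genes were lower in 18 of 26 members with a median of -0.03, Cytl1 from 8.39 to 7.68 and Col9a2 from 8.32 to 7.86, whereas Col2a1, the main collagen of cartilage, stood at 8.25 and 8.24.

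Signalling pathways of palate growth showed small differences. Hedgehog pathway genes were higher in 21 of 26 members with a median of 0.16, including the receptor and target Ptch1 (10.04 to 10.36), the coreceptor Boc (9.04 to 9.37) and the transducer Smo (10.62 to 10.84). FGF pathway genes had a median of 0.05: Fgf10, the mesenchymal ligand of shelf outgrowth, went from 6.49 to 6.93, its epithelial receptor Fgfr2 from 9.68 to 9.92 and Fgf11 from 6.89 to 7.62. WNT pathway genes had a median of 0.08, with Lef1, the nuclear effector, at 7.56 and 8.19, the receptor Fzd6 at 8.37 and 8.85 and the inhibitor Dkk1 at 7.27 and 7.67. BMP and TGF-beta genes had a median of 0.06 and 0 past 1.5-fold among 49 past the level limit, with Bmp4 at 9.13 and 9.22, Bmp2 at 7.40 and 7.73 and Bmpr1b at 6.88 and 6.36. Retinoic acid genes held the 1 signalling gene past 2-fold: Aldh1a1, a synthesising enzyme, went from 7.41 to 6.38, while Aldh1a2, the enzyme of embryonic mesenchyme, went from 9.47 to 9.67 and the retinal reductase Dhrs3 from 7.53 to 8.08. Guidance molecules were higher as families, semaphorins and plexins in 25 of 29 members (median 0.23), led by Sema4g (6.88 to 7.73), and Eph receptors and ephrins in 17 of 21 (median 0.13). Both families serve nerves and vessels as well as mesenchyme.

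The epithelial lists held 0 of the genes past both the level limit and 2-fold. The list of epithelial junction and identity genes was lower in 26 of 39 members, with a median of -0.07, and that of palatal and oral epithelium, periderm and fusion genes was even, with 19 higher and 20 lower. Among the former, Cldn3, a tight junction claudin of simple epithelium, went from 7.74 to 6.99, and Cldn9, a claudin gene on no list, from 7.92 to 6.89, 2-fold lower, while Cldn8 went from 7.64 to 8.01. Ocln, the tight junction protein occludin, went from 7.40 to 6.86. Stratified epithelium differed less or the other way, with Krt15 from 8.49 to 9.07 and the desmosomal plaque protein Pkp1 from 7.03 to 7.43. The basement membrane laminin Lamb3 went from 6.23 to 6.8, and the desmosomal cadherins Dsg3 and Dsc3 differed by 0.23 and -0.06. Dsg1a, a desmosomal cadherin under the level limit, had the largest difference on the palatal and oral epithelium list, 1.19. Of 53 keratin genes 42 were lower, and of the 9 past the level limit 0 differed by 1.5-fold, Krt6a, a keratin of periderm, by -0.38 and Krt19, a keratin of simple epithelium, by -0.34. Trp63, the master factor of stratified epithelium, stood at 8.12 and 7.99, and Tgfb3, the ligand of midline fusion, at 9.09 and 9.33; both were chosen after their values were seen.

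Tooth germ genes were higher in 25 of 35 members (median 0.17), with Foxi3 at 6.25 and 6.8 and Sostdc1, a secreted inhibitor of WNT and BMP, at 9.5 and 9.78. Genes of the ZEB and miR-200 axis, which governs epithelial-mesenchymal transition, were higher in 14 of 19 members (median 0.08, or -0.07 without members of another list), Zeb1 at 7.48 and 7.77 and Grhl2, its epithelial opponent, at 7.09 and 7.35. Of 461 mesenchyme, signalling and epithelium genes measured, 348 passed the level limit, of which 5 were at least 1.5-fold higher and 6 lower, or 3.16% in all. That share is close to the 3.25% of all genes past the limit.

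Blood and vessel genes gave a mixed picture. Blood endothelial genes were higher in 26 of 33 members with a median of 0.15, and the 2 receptors for Vegfa were among them, Flt1 from 6.92 to 7.55 and Kdr from 8.40 to 8.88. Cdh5, the cadherin of endothelial junctions, went from 9.94 to 10.07 and Emcn, a sialomucin of veins and capillaries, stood at 9.25 and 9.23. Macrophage and leukocyte genes were lower in 31 of 38 members with a median of -0.21, Mrc1, the mannose receptor of resident macrophages, from 8.11 to 7.38 and Fcer1g, an adaptor of Fc receptors, from 8.36 to 7.59. Lyve1, made in lymphatic vessels and macrophages, went from 7.35 to 6.93 while Prox1, the lymphatic master factor, went from 6.90 to 7.42. Erythroid genes were even at 9 and 9, and the embryonic globin Hbb-y stood at 10.78 and 10.95.

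Growth-related and housekeeping sets differed by small amounts. Cell cycle genes were lower in 39 of 52 members with a median of -0.06, against -0.10 in the head, Ccne1, the cyclin of S-phase entry, from 7.71 to 7.31 and Mki67, the proliferation marker, from 10.82 to 10.70. Proteasome genes were lower in 36 of 47 (median -0.09), and cytosolic ribosomal protein genes were even with 30 higher and 33 lower. Clock genes past the level limit included 3 at least 1.5-fold higher, Rorb (5.82 to 6.76), Ciart (6.13 to 6.91) and Bhlhe40 (8.10 to 8.81), the last of which is also a hypoxia target. The genes next to Tbx1 in the DiGeorge region divided into 16 higher and 16 lower, Tbx1 included; Dgcr2 stood at 9.25 and 9.13 and Ufd1 at 9.53 and 9.43.

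Imprinted genes held 4 members past the level limit and 2-fold, all higher and all made in brain. Ipw, a noncoding RNA of the Prader-Willi region, went from 4.55 to 6.91, against 7.28 and 7.59 in the heads. Usp29 went from 6.35 to 8.27, against 8.68 and 8.72, and Calcr is given above. Ube3a, the ubiquitin ligase of Angelman syndrome, averaged 6.90 and 7.99, but its 2 transcript clusters differed by 0.05 and 2.15, so the gene's value rests on the dimmer cluster. Imprinted growth genes that are bright in mesenchyme did not follow: Igf2 differed by 0.11, Mest by 0.05, Grb10 by 0.04 and Cdkn1c by 0.12.

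**Figure D5:**
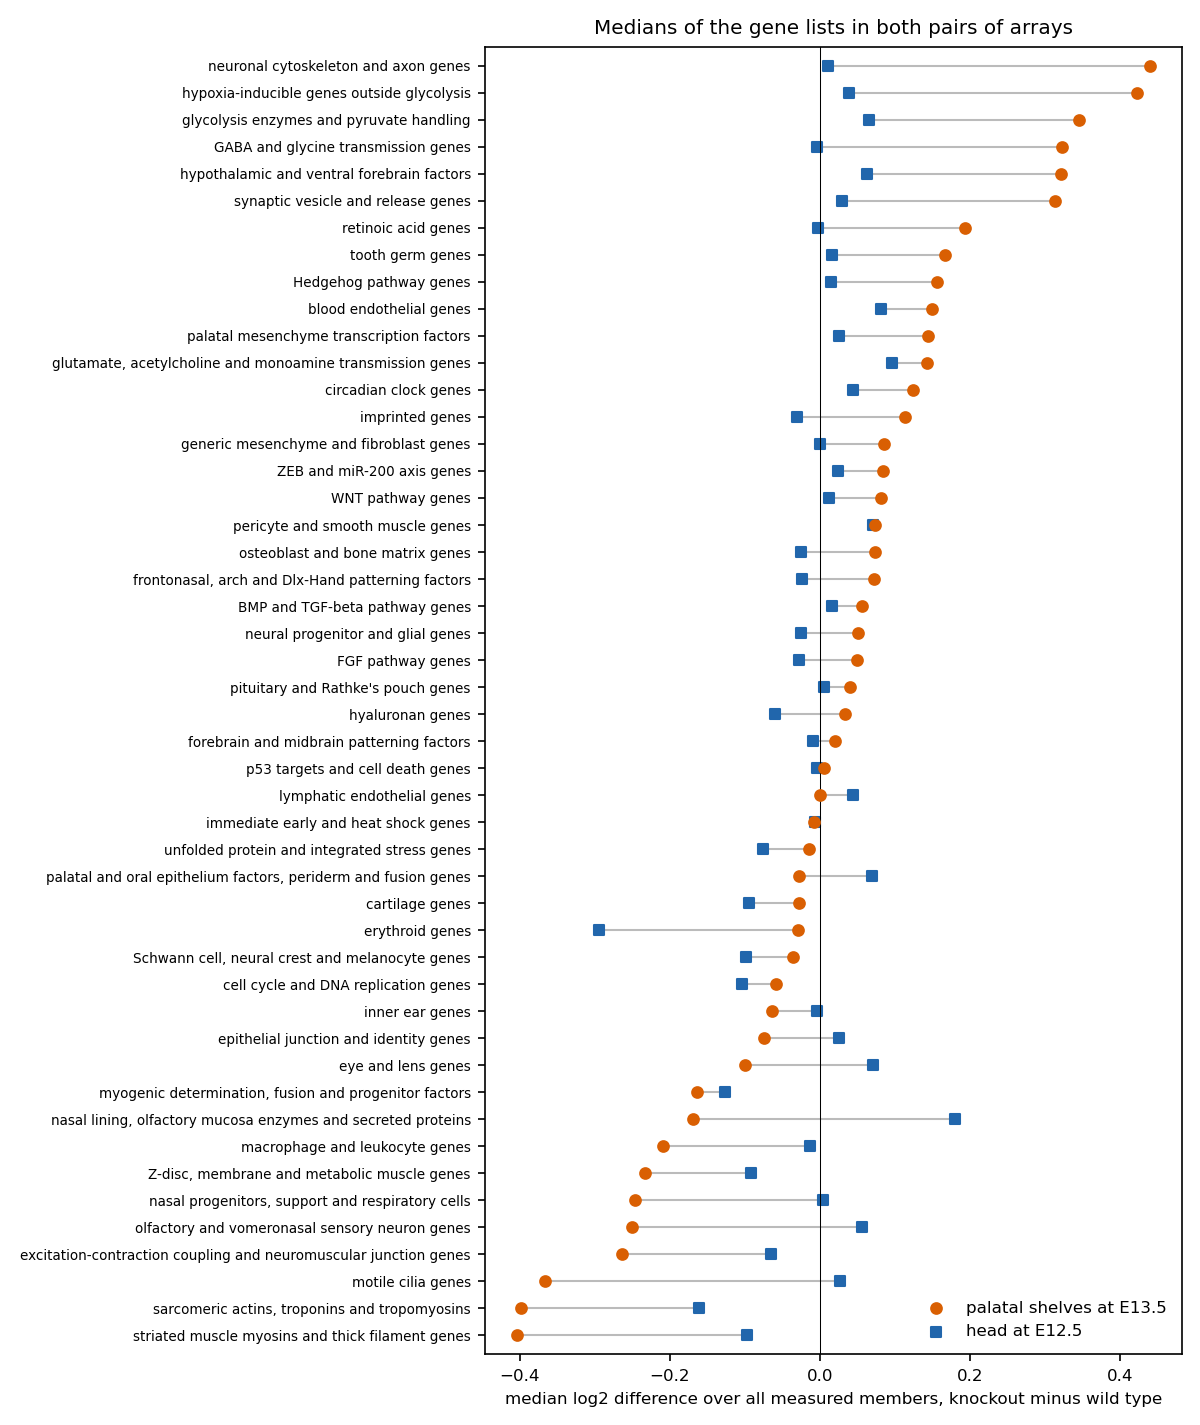
Median log2 difference (x axis), knockout minus wild type, over all measured members of gene lists (rows), as a circle for the E13.5 palatal shelves and a square for the E12.5 head. The lists of sex-linked genes and of Tbx1 with its neighbours are not drawn. Hypoxia genes lie at 0.04 in the head and 0.42 in the shelves, and sarcomeric actins, troponins and tropomyosins at -0.16 and -0.40.

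Several lists had different medians in the shelf and head pairs, a difference that was not tested. The nasal lining list had a median of -0.17 in the shelves and 0.18 in the head, motile cilia -0.37 and 0.03, neuronal cytoskeleton genes 0.44 and 0.01, synaptic genes 0.31 and 0.03 and glycolysis genes 0.35 and 0.07. Erythroid genes had a median of -0.03 in the shelves and -0.29 in the head. The heads contain brain and nasal tissue whole, whereas the shelves at E13.5 were cut out, so the 2 pairs differ in dissection as well as in stage.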

How the data were processed

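RNA of 4 samples was read on 4 arrays, 1 per group. The authors deposited log2 levels of transcript clusters. The submitters' processing notes name RMA and Affymetrix Expression Console as tools; their versions and the genome build are not given in the sources used. RMA gives the arrays a common distribution, which removes a shift shared by most genes, and compresses folds of dim genes. Per the labels' protocols, 100 ng of frozen-tissue RNA was labelled. Groups came from sample titles. Of 41345 clusters, 23521 had 1 symbol in the platform annotation and were averaged per gene, 1814 had several and 16010 none. Nothing was tested, because each group has 1 array; counts, medians and differences were computed with pandas 2.3.3 in Python 3.11.15 and checked on simulated data. Arrays carry no read depth. The shelves were described by 50 gene lists (1544 of 1685 entries measured) and 63 families matched by symbol. The members and lists were chosen with earlier results of these data known. The text names a selection of Tbx1, the 25 largest differences each way past the level limit (predicted genes, RIKEN clones, olfactory and vomeronasal receptors and small RNAs counted and skipped, 3 higher and 4 lower), per list the 4 largest differences and 4 highest levels, and per family the 3 largest differences. Other genes named are stated to be chosen later. Olfr15 and Cldn9 came from the families. Alternatives were centring, quantile normalization and cyclic loess (limma 3.58.1, R 4.3.3), the brightest cluster, other filters (log2 7.79 as upper quartile), folds and summaries. Promoter sequences came from RefSeq tables of GRCm38.p6.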

Additional observations from a re-analysis of the deposited data

Results flagged for a closer look

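Capsl, a calcium-binding protein gene of ciliated cells, differed in opposite directions in the 2 pairs: its difference was -1.25 in the shelves (7.20 to 5.95) and 0.61 in the head (4.84 to 5.45). The nasal lining list likewise had a median of -0.17 in the shelves and 0.18 in the head. Neither contrast between the pairs was tested.

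Transcript clusters with several symbols were left out of the gene values above, and 824 of them passed the level limit, 20 of them 2-fold or more up in the knockout shelves and 3 down. The clusters listed for Gm26504, Snord116l1 and Snord116l2, noncoding and small nucleolar RNAs of the Prader-Willi region, had a difference of 3.0, with levels of 7.06 and 10.06 in wild-type and knockout shelves; 16 clusters of this kind held identical values and count as 1 reading. The cluster shared by Ugt2a1 and Ugt2a2, glucuronosyltransferases of the olfactory mucosa, had a difference of -3.10, with 8.78 and 5.68 in the shelves and 5.38 and 4.79 in the heads, 8.57-fold lower in the knockout shelves.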

How the results depend on the processing

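No paired analysis was possible because each group has 1 array and the labels give no replicate numbers. No result has a replicate error, signal near the level limit compresses folds, and 33 of the 53 higher and 34 of the 54 lower genes were under the limit in the other shelf array. Renormalization moved single genes by at most 0.07 on the log2 scale. The 53 higher genes became 18 with an upper-quartile limit, 219 at 1.5-fold, 12 at 3-fold, and, in alternatives chosen after seeing the data, 32 without nervous system lists and 31 without all lists of neighbouring tissues. The 54 lower genes became 14, 153 and 13 in the same order, and 30 without all lists of neighbouring tissues. The nasal lining median of -0.17 became -0.41 over members past the limit and -0.55 as a mean. Among medians at least 0.1 from 0, the sign changed only with a filter on dim members, by the mean of the 4 arrays or by the higher shelf array, for eye and lens genes (0.016 under both), Z-disc genes (0.10 under both), excitation-contraction coupling genes (0.07 and 0.01) and myogenic factors (0.012 under both). These filters keep fewer members, and a gene can pass the second through its higher shelf array alone, which favours larger differences either way. The cause of the sign changes was not tested. Counting each median once per alternative, 29 of 400 list values and 44 of 422 family values changed sign; outside those just given, the medians that did so lay within 0.085 of 0. The myosin median became -0.91 and -1.11 with these filters, the olfactory neuron median -0.05 with the first, and the nasal progenitor median -0.52 without members of another list.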

Other observations

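Small and unnamed transcripts were counted apart. Of 483 microRNA hairpins measured, 259 were higher and 224 lower. Of the 105 past the level limit Mir125b-1 (5.44 to 6.72) was the 1 hairpin that differed by 2-fold, beside Mir149 (5.71 to 6.41) and Mir205, a microRNA of stratified epithelium (6.61 to 7.25). Small nucleolar RNAs named by a single symbol were higher in 50 of 73 with a median of 0.08 and 0 of 63 past the level limit at 1.5-fold, in contrast to the Snord116 clusters with several symbols. Of 5419 clusters past the level limit with no listed gene, 72 were 2-fold or more up in the knockout shelves and 39 down. Of 12097 such clusters with 1 symbol, 73 were up and 56 down, and the 73 include 15 identical clusters of Gm26504. Clusters with no listed gene were not checked for repeated values. Zinc finger genes named Zfp were higher in 205 of 336 with a median of 0.06, and solute carriers were even, with 176 higher and 181 lower. Among genes with Slc symbols past the limit the largest differences were those of Slc2a3 and the lactate carrier Slc16a3, both given above, and Slc16a14 (5.46 to 6.34).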
